A study of Gallus gallus with 9 samples.

Results

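MYC and the proteins that share its dimerization partner MAX were followed in cultured chicken primordial germ cells (PGCs), the embryonic precursors of eggs and sperm, as basic fibroblast growth factor (bFGF) was withdrawn and then replaced. The genes were chosen by name: the MYC proteins (MYC and MYCN), MAX, and the MAX-binding antagonists MXI1, MXD4, MNT and MGA. A probe set, the group of short probes that measures 1 transcript on the array, was taken when its only annotated gene symbol was one of these names. This gave 19 probe sets for 6 of the 7 genes, out of 38439 probe sets in all, of which 27168 have a single symbol, for 13009 genes. MAX is the symbol of no probe set here and is not analysed. The network was selected with results of these same arrays known, among them the changes of MYC, so the values of the members are a description. No p-value is printed for a member. Where members are called or counted at a threshold, this only marks the probe sets that passed it. Such calls, and whether they held in other runs, are not a test of the members.

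MYC proteins are transcription factors that bind DNA as dimers with MAX and recruit histone acetyltransferases to genes of ribosome production, metabolism and the cell cycle. The MXD proteins, which include MXI1 and MXD4, and MNT compete for MAX and recruit SIN3 and histone deacetylases to the same kind of site. MGA also pairs with MAX and is part of a Polycomb complex that, in mouse embryonic stem cells, keeps germ cell genes silent. In many mammalian cells, growth factors acting through ERK kinases raise MYC transcription and stabilize MYC protein, and MYCN is the family member known from stem and progenitor cells.

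RAW cells (0 h) were PGCs kept in medium with serum and 10 ng/ml bFGF, -bFGF cells (24 h) were PGCs after a day without the factor, and +bFGF cells (48 h) followed a further day with it restored, with 3 Affymetrix Chicken Genome arrays per group. All were grown without feeder cells from blood of Korean Oge embryos taken on embryonic day 2.5. The labels do not say whether the 3 arrays of a group came from separate cultures, so p-values measure only the spread between these samples, and each 24 h step also lengthened the time in culture. The deposited values are linear MAS5 intensities, scaled by the authors so that the trimmed mean of every array was 500.1. Intensities of different probe sets are not comparable as transcript levels, so changes are read from each probe set against itself across arrays. Sums over cell type markers add different probe sets, so they are only a rough description in which bright probe sets weigh most. The background was read from 744 probe sets that have no gene symbol and whose names lie outside the chicken series of the array, and their 95th percentile was 32 on the lowest array and 40.5 on the highest.

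The germ cell genes DAZL, at 39391 ± 1608 in RAW (SD, n = 3), and DDX4, at 22161 ± 504, were bright. DAZL was called fallen in -bFGF (32806 ± 4038), by a log2 change of -0.27 (SE 0.0746, adjusted p = 0.0342 from limma), and that call ended without any RAW array or -bFGF replicate 2 or 3, with no filter on dim probe sets, with no intensity trend in the variances and with replicate number as a block. Of 15 tested germ cell markers, limma called 3 fallen and 1 risen on withdrawal. Of all 9125 genes, each by its brightest tested probe set, 5.99% fell and 6.83% rose on withdrawal. On replacement 4.21% of them fell and 4.02% rose. LIN28A changed by -0.98 (SE 0.135, adjusted p = 0.000382) and ITGB1 by -0.23, while TDRD7 rose by 0.23 (adjusted p = 0.0168). The call of LIN28A held under every setting. That of TDRD7 ended without replicate 2 or 3 of RAW or -bFGF and with no intensity trend. Among those not called, KIT changed by 0.12 and DDX4 by -0.16, both without overlap, and SOX3 by -0.25 with overlap. At an unadjusted p under 0.05 by limma, 5 of the 15 fell and 1 rose on withdrawal, where 4826 of all 19220 tested probe sets passed in either direction. On replacement LIN28A rose by 0.80 and ITGA6 changed by -0.20, both called. Markers of red cells, thrombocytes and endothelium were dim: their summed intensities were at most 349.9 for 6 genes, 178 for 2 genes and 349.8 for 8 genes on any array. Summed intensities of 12 fibroblast and mesenchyme markers lay between 6156 and 6408 in -bFGF, against 8178 to 9226 in RAW, and between 6921 and 8109 in +bFGF. Most of that difference came from the collagen gene COL1A2, at 263 ± 13 in -bFGF and 2385 ± 222 in RAW, while COL3A1, the brightest of the list, stood at 4418 ± 153 in -bFGF and 4235 ± 359 in RAW. Leukocyte markers are given beside MYC. Array controls of RNA quality also differed between the groups, though not all in the same direction. For actin, the log2 of the signal at the 3' end over that at the 5' end differed by -0.245 in +bFGF less -bFGF, without overlap. In -bFGF less RAW this measure differed by -0.0949 for GAPDH and by 0.0788 for EF1A, again without overlap. In +bFGF less RAW it differed without overlap for actin (-0.169), GAPDH (-0.0536) and EF1A (0.072). Their part in the changes given here was not tested.

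MYC was highest without bFGF and MYCN lowest. Both MXD4 probe sets had lower means in -bFGF and in +bFGF than in RAW, and 1 of the 2 was called fallen in both comparisons. The brightest MXI1 probe set was called fallen in +bFGF against -bFGF and against RAW, and no MNT or MGA probe set was called. Of the 19 probe sets, 14 were bright enough to be tested, with a mean log2 intensity at or above the median of all probe sets (an intensity of 72.4). The other 5 (4 of MGA and 1 of MXI1) were not tested. Limma was fitted to all 9 arrays over 19220 probe sets, and a probe set was called at a Benjamini-Hochberg adjusted p under 0.05. On withdrawal (-bFGF against RAW) 2 of the 14 were called fallen and 1 risen, where 5.33% and 5.4% of all tested probe sets were. On replacement (+bFGF against -bFGF) 2 were called fallen and 1 risen, where the background was 3.42% and 3.37%. For the net change (+bFGF against RAW) 2 were called fallen and 1 risen, against 1.74% and 1.14%. At an unadjusted p under 0.05 by limma, 4826 of the 19220 passed on withdrawal, 3944 on replacement and 3430 in the net change, in either direction. These are the background of every unadjusted count given below. Since the network was chosen with these arrays in view, nothing is read from the difference between its counts and the background.

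The arrays of the compared groups did not overlap for 7 of the 14 probe sets on withdrawal (31.4% of all tested), for 6 on replacement (25.5%) and for 5 in the net change (22.1%). The median log2 change of the 14 was -0.11 on withdrawal, -0.08 on replacement and -0.12 net, and that of all tested probe sets was 0.02, -0.02 and -0.01. A call in the manner of the study's methods needs group means more than 50 apart, and a fold whose 90% interval lies wholly beyond 1.2, both on linear intensities. It was met on withdrawal by MYC (risen) and 1 MXD4 probe set (fallen), where 3.41% of all 38439 probe sets were called. On replacement it was met by MYC (fallen) and 1 MYCN probe set (risen), where 2.68% were called, and in the net change by the same MXD4 probe set (fallen), where 1.3% were. Errors here came from the spread of the replicate MAS5 values, and 1311, 1030 and 501 probe sets were called. The study, working from probe-level data, reported fewer in each comparison. The withdrawal and replacement comparisons share the -bFGF arrays.

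**Figure D1:**
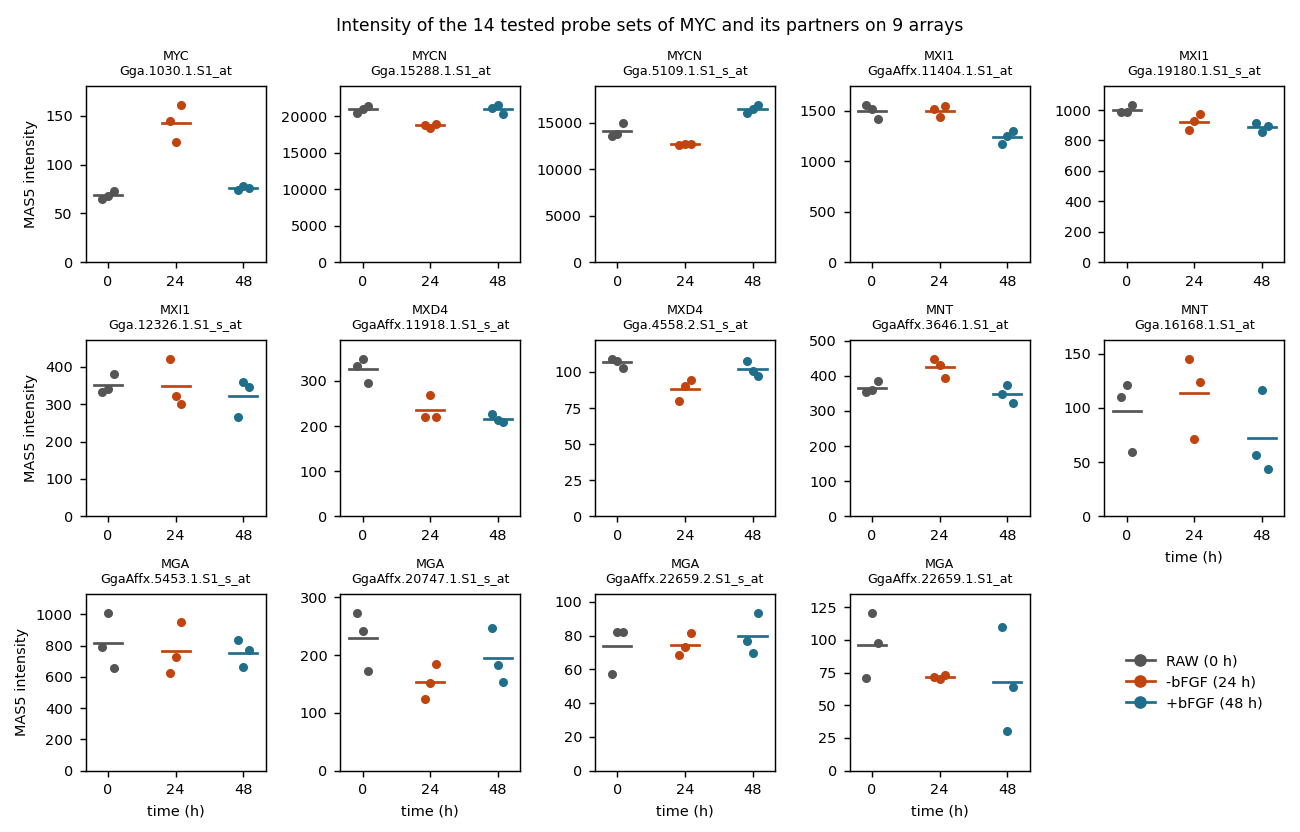
MAS5 intensity (linear, y axis from 0) against time (h) for the 14 tested probe sets of 6 genes on 9 arrays, with a point for each array, a line at each group mean and, within a gene, the brightest probe set first. MYC stood between 123 and 161 on the -bFGF arrays (24 h) and between 64.6 and 77.6 on all other arrays, while the 4 MGA probe sets overlapped between all groups.

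MYC, which turns on growth genes in complex with MAX, was measured by 1 probe set (the gene lies on chromosome 2). Its intensity was 64.6, 68.2 and 72.5 on the RAW arrays at 0 h, 145, 123 and 161 on the -bFGF arrays at 24 h, and 74.4, 77.6 and 75.8 on the +bFGF arrays at 48 h. All 3 -bFGF arrays lay above all others, and the +bFGF arrays lay just above RAW without overlap. The mean was 143 ± 19.4 in -bFGF and 68.5 ± 3.96 in RAW (SD, n = 3 each), a log2 change of 1.05 (SE 0.196) or 2.08-fold. In +bFGF the mean was 75.9 ± 1.57, which is a log2 change of -0.90 against -bFGF and of 0.15 against RAW (SE 0.196 for both). MYC was called risen on withdrawal and fallen on replacement, and its net change was not called. Fewer cells of a type and less RNA per cell cannot be told apart in these bulk samples.

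MYC was a dim probe set, and the size of its changes depends on how low intensities are treated. It lay above the background on every array, but its RAW mean was below the filter of 72.4, so it passed the filter with the help of the -bFGF arrays, where it is high. With 50 added to all intensities before the logarithm, the changes were 0.70 and -0.61. The replacement call ended without -bFGF replicate 3, where the change was -0.81.

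The summed level of leukocyte markers moved with MYC, though not every marker did. The summed intensity over 9 genes of the list ran between 1176 and 1251 in -bFGF, against 1052 to 1106 in RAW, and between 1088 and 1155 in +bFGF, again with the -bFGF arrays above all others. The largest part of the difference from RAW came from CYBB, a subunit of the phagocyte oxidase, at 576 ± 44.2 in -bFGF and 444 ± 17.5 in RAW. Of the 5 genes of the list that were tested, CYBB was called risen on withdrawal (0.37, SE 0.0963, adjusted p = 0.0248 from limma). CD44, an adhesion receptor, was called fallen on replacement (-0.74, SE 0.192, adjusted p = 0.0349). Of all genes, 6.83% rose on withdrawal and 4.21% fell on replacement. PTPRC, the common leukocyte antigen, averaged 123 ± 10.3 in -bFGF and 93.5 ± 3.41 in RAW (SD, n = 3 each), and was not called. LCP1 and CD74, also tested and not called, changed by -0.01 and -0.14. CSF1R, the macrophage growth factor receptor, was too dim to be tested and was lower without bFGF, at 49.3 ± 15.6 in -bFGF and 96.5 ± 15.5 in RAW. The other defining markers SPI1, LYZ and CSF3R averaged at most 16.1 in any group, below the background. Leaving out the second or the third array of RAW or of -bFGF ended the call of CYBB. That of CD44 was lost when any +bFGF array, or the first or the third -bFGF array, was removed, and also with no filter, only the 2 groups in the fit or replicate number as a block.

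MYCN, the MYC family member of progenitor cells (chromosome 3), was measured by 2 probe sets, both of them bright and both lower without bFGF. On the brighter one it stood at 20432, 21004 and 21373 in RAW (0 h), at 18857, 18377 and 18964 in -bFGF (24 h), and at 21079.6, 21581 and 20272 in +bFGF (48 h). All -bFGF arrays lay below all RAW and +bFGF arrays, and the RAW and +bFGF arrays overlapped. The log2 change was -0.16 on withdrawal, 0.16 on replacement and 0.00 net (SE 0.0463). Only the fall was called. That call ended without any 1 RAW or -bFGF array or +bFGF replicate 2, with the change between -0.18 and -0.15, and also with no filter, with quantile normalization (a change of -0.09), with no intensity trend and with replicate number as a block. The rise on replacement was called with the 75th percentile filter and with centring on the 75th percentile, and not otherwise. Of 10 tested housekeeping genes, limma called 0 on withdrawal and 0 on replacement, with medians of -0.10 and 0.07. At an unadjusted p under 0.05, 4 fell and 1 rose on withdrawal. Among them GAPDH changed by -0.19 (SE 0.0663), EEF1A1 by -0.18 (SE 0.062) and B2M by 0.28 (SE 0.104). Whether MYCN shared a shift of bright probe sets was not tested.

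On the dimmer probe set, MYCN stood at 13549, 13758 and 14958 in RAW (0 h), at 12626, 12694 and 12732 in -bFGF (24 h), and at 16075, 16446 and 16964 in +bFGF (48 h). The 3 groups did not overlap, with -bFGF lowest and +bFGF highest. The log2 change was -0.15 on withdrawal, which was not called, 0.38 on replacement and 0.23 net (SE 0.0506), the last 2 called risen. The rise on replacement was called under every setting tried. The net call ended without RAW replicate 1 or 2, -bFGF replicate 2, or +bFGF replicate 2 or 3 (changes between 0.20 and 0.27 over the arrays left out), and with no filter, no intensity trend, only the 2 groups in the fit or the block. The probe sets of MYCN therefore differ on the net change, at 0.00 and 0.23, and their correlation over the 9 arrays was 0.749.

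MYC was highest and both MYCN probe sets were lowest in -bFGF, while +bFGF lay above RAW without overlap for MYC and for the dimmer MYCN probe set. Over the 9 arrays, which fall into 3 groups, the Pearson correlation of log2 MYC was -0.858 with the brighter MYCN probe set and -0.655 with the dimmer. On withdrawal the log2 change was 1.05 for MYC and -0.16 and -0.15 for MYCN. On replacement it was -0.90 for MYC and 0.16 and 0.38 for MYCN.

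MXI1 (chromosome 6), a MAX partner that represses transcription through SIN3, had 4 probe sets that did not behave alike. On the brightest it stood at 1561, 1519.9 and 1417 in RAW (0 h), at 1518, 1443 and 1546 in -bFGF (24 h), and at 1175, 1249.7 and 1296 in +bFGF (48 h). The +bFGF arrays lay below all others, while RAW and -bFGF overlapped. The log2 change was 0.00 on withdrawal, -0.28 on replacement and -0.27 net (SE 0.0672), and the last 2 were called fallen. The replacement call ended without any -bFGF array or without +bFGF replicate 1 or 2, and the net call without any array but RAW replicate 3. Over all arrays left out, the change stayed between -0.31 and -0.24 in both comparisons. Centring on the 75th percentile, no intensity trend and the block also ended both calls, and no filter and the fit of only the 2 groups ended the net call.

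On the next brightest, MXI1 stood at 985, 987 and 1035 in RAW (0 h), at 866, 926 and 975 in -bFGF (24 h), and at 913, 858 and 893 in +bFGF (48 h). Here the RAW arrays were highest, without overlap with either other group. The log2 changes of -0.12, -0.05 and -0.17 (SE 0.0716) were not called. The other tested probe set ranged between 264.5 and 421 over the 9 arrays with all groups overlapping, and its changes of -0.03, -0.11 and -0.13 (SE 0.149) were not called. The last one, between 7.63 and 98.1, was too dim to be tested. Of the 3 tested MXI1 probe sets, limma called 0 on withdrawal. At an unadjusted p under 0.05, 0 passed on withdrawal, 1 (fallen) on replacement and 2 (fallen) in the net change. Each of the 3 had a lower mean in +bFGF than in RAW.

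MXD4 (chromosome 4), a SIN3-binding MAX partner known from cells that leave the cell cycle, was lower without bFGF on both of its probe sets. Its net change was called on only 1 of them. On the brighter one it stood at 333, 349 and 296.4 in RAW (0 h), at 221, 269 and 219 in -bFGF (24 h), and at 228, 214 and 209 in +bFGF (48 h). The RAW arrays lay above all others, and -bFGF and +bFGF overlapped. The mean was 236 ± 27.9 in -bFGF and 326 ± 27 in RAW (SD, n = 3 each), a log2 change of -0.47. The change on replacement was -0.12 and the net change -0.59 (SE 0.126 for each), and the withdrawal and net changes were called fallen. The withdrawal call ended when the first or the second RAW array, or the first or the third -bFGF array, was removed (changes between -0.56 and -0.42 over the arrays left out). The net call ended without RAW replicate 1 or 2 or +bFGF replicate 2 or 3 (-0.65 to -0.54). The 75th percentile filter, which leaves this probe set out, ended both, and no filter ended the withdrawal call.

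On the dimmer probe set, MXD4 stood at 109, 108 and 103 in RAW (0 h), at 80.2, 89.9 and 94.3 in -bFGF (24 h), and at 108, 100.9 and 96.9 in +bFGF (48 h). The -bFGF arrays lay below all others, and RAW and +bFGF overlapped. The log2 changes of -0.28, 0.21 and -0.07 (SE 0.181) were not called. After bFGF was given back, this probe set was near its RAW level and the brighter one was not.

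MNT (chromosome 19), a widely expressed MAX partner that opposes MYC, was measured by 2 probe sets, and limma called neither in any comparison. The brighter one stood at 353, 358 and 386 in RAW (0 h), at 448, 431 and 395 in -bFGF (24 h), and at 348, 374 and 323 in +bFGF (48 h). The -bFGF arrays lay above all others, as for MYC, while RAW and +bFGF overlapped, and the log2 changes were 0.21, -0.29 and -0.07 (SE 0.102). On the dimmer one the arrays ranged between 59 and 121 in RAW, between 71.8 and 145 in -bFGF and between 43.3 and 117 in +bFGF, so the groups overlapped, and the log2 changes were 0.24, -0.72 and -0.48 (SE 0.387). At an unadjusted p under 0.05, 0 of the 2 passed on withdrawal, 1 (fallen) on replacement and 0 in the net change. Over the 9 arrays the correlation of the brighter MNT probe set was 0.763 with MYC and -0.765 with the dimmer MXD4 probe set.

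MGA (chromosome 5), the largest protein of the network and a scaffold of a Polycomb complex, had 8 probe sets, of which 4 were tested and limma called 0 in each comparison. At an unadjusted p under 0.05, 1 passed on withdrawal (fallen), 0 on replacement and 0 in the net change. The brightest stood at 789, 1009 and 656 in RAW (0 h), at 621, 727 and 949.9 in -bFGF (24 h), and at 833, 660.4 and 774 in +bFGF (48 h). Arrays of 1 group differed more than the group means did, and the log2 changes were -0.09, 0.00 and -0.10 (SE 0.164). The next brightest stood at 273, 241 and 172 in RAW (0 h), at 124, 152 and 185 in -bFGF (24 h), and at 247, 184 and 154 in +bFGF (48 h). It overlapped between all groups, with log2 changes of -0.57, 0.34 and -0.23 (SE 0.218). The other 2 tested probe sets ranged between 57 and 93.4 and between 30.2 and 121, and all groups overlapped. The 4 that were not tested ranged between 0.283 and 83.7 over the 9 arrays.

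**Figure D2:**
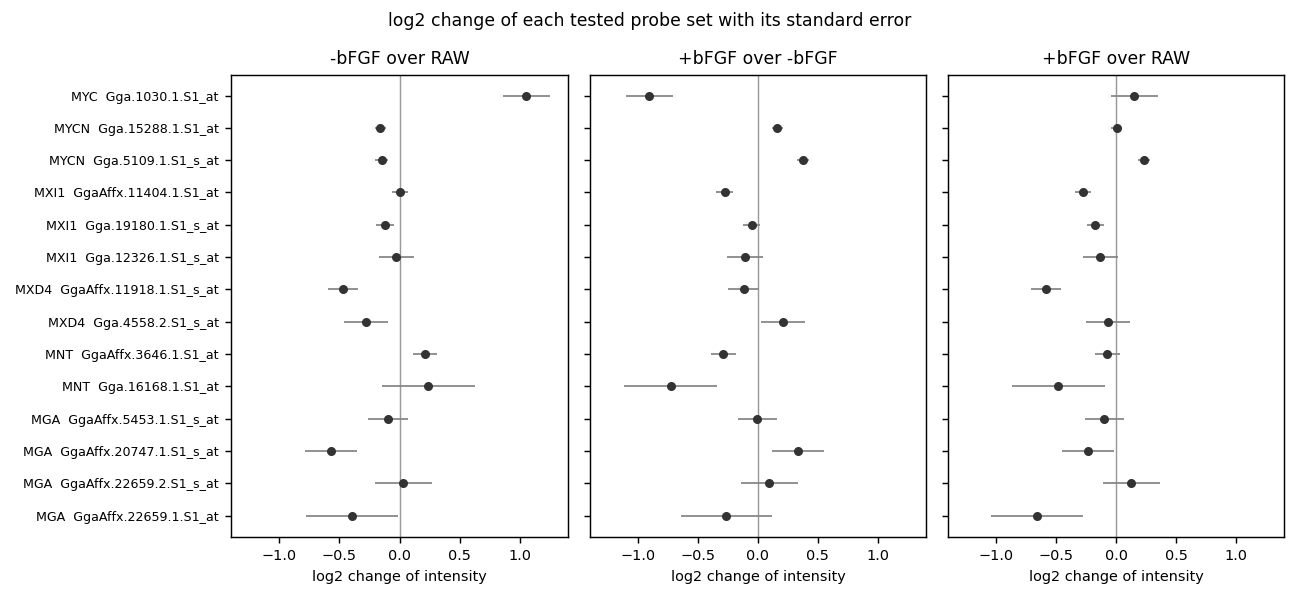
log2 change of intensity (x axis) of the 14 tested probe sets for -bFGF over RAW, +bFGF over -bFGF and +bFGF over RAW, from limma on 9 arrays, where bars are 1 SE on each side. MYC stands to the right at 1.05 without bFGF and to the left at -0.90 after its return, while the MYCN probe sets go the other way by at most 0.38.

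Other genes of the extended network, which bind MAX, its relative MLX or MYC itself, showed no called change. The names come from a list of 10 genes, of which 7 have a probe set and 6 were tested. Limma called 0 of the 6 in each comparison. At an unadjusted p under 0.05, 1 fell on withdrawal, 0 changed on replacement, and 1 fell and 1 rose in the net change. The other MAX-binding repressors were MXD1, at a log2 change of 0.13 (SE 0.106) on withdrawal and 0.09 on replacement, and MXD3, at 0.06 (SE 0.136) and 0.27. MLX, the partner of the glucose sensor MondoA, changed by -0.04 (SE 0.0572) and 0.01, and MLXIP, the gene of MondoA, by -0.19 (SE 0.0774) and -0.01. MYCBP, which binds MYC, changed by 0.13 (SE 0.0671) and 0.01, and the ubiquitin ligase gene MYCBP2 by 0.09 (SE 0.143) and -0.08. For each gene of this and the following lists the brightest tested probe set was used. Of all 9125 genes so measured, 5.99% fell and 6.83% rose on withdrawal (median log2 change 0.03), and 4.21% fell and 4.02% rose on replacement (median -0.02).

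Among 13 measured coactivators that MYC brings to its targets, 1 fell and 0 rose on withdrawal, and 0 changed on replacement by limma (at an unadjusted p under 0.05, 2 fell and 0 rose, and then 0 fell and 1 rose). KAT2B, a histone acetyltransferase, averaged 78.2 ± 28.3 in -bFGF and 132 ± 2.12 in RAW (SD, n = 3 each), a log2 change of -0.81 (SE 0.236, adjusted p = 0.0426 from limma). Its call ended without any RAW array, -bFGF replicate 1 or 3, or +bFGF replicate 2 or 3. It also ended with no filter, no intensity trend, only the 2 groups or the block. The median of the list was 0.05 and then 0.03.

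Among 24 measured corepressors that MXD, MNT and MGA proteins recruit, 3 fell and 1 rose on withdrawal, with a list median of 0.02. ING1, a SIN3 complex subunit that reads histone methylation, averaged 492 ± 8.91 in -bFGF and 678 ± 70 in RAW (SD, n = 3 each), a log2 change of -0.46 (SE 0.0912, adjusted p = 0.00574 from limma). CBX3, a heterochromatin protein found with MGA, changed by -0.35 (SE 0.0546, adjusted p = 0.00114). The histone chaperone genes RBBP4 and RBBP7, whose proteins share complexes, moved apart, by -0.19 (SE 0.0458, adjusted p = 0.0162) and 0.29 (SE 0.0776, adjusted p = 0.0308). Removing the second or the third array of RAW or of -bFGF ended the call of RBBP4, and removing the first or the third RAW array or the first or the second -bFGF array ended that of RBBP7. With no intensity trend both were lost, and with no filter that of RBBP7. On replacement 0 fell by limma (1 at an unadjusted p under 0.05) and 1 rose, the SIN3 subunit gene SAP30, by 0.25 (SE 0.0631, adjusted p = 0.0279), with a list median of 0.01. That call ended without -bFGF replicate 2 or 3 or any +bFGF array, and with no filter or no intensity trend.

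Among 20 measured genes of MYC protein turnover and phosphorylation, 2 fell and 1 rose on withdrawal, with a list median of -0.07. PPP2R5A, a subunit of the PP2A phosphatase that in mammals dephosphorylates MYC, changed by -0.25 (SE 0.053, adjusted p = 0.00827 from limma). SET, an inhibitor of the same phosphatase, changed by -0.22 (SE 0.0615, adjusted p = 0.0387), and the deubiquitinase gene USP28, which in human cells stabilizes MYC, rose by 0.20 (SE 0.0586, adjusted p = 0.0429). The call of SET was lost without RAW replicate 2 or 3, -bFGF replicate 1 or 2, or +bFGF replicate 2. That of USP28 was lost when any array but +bFGF replicate 1 was removed. Both were also lost with no filter, quantile normalization, no intensity trend or the block, and USP28 with centring or only the 2 groups too. On replacement 1 fell, the ubiquitin ligase gene FBXO32, by -0.59 (SE 0.147, adjusted p = 0.0291), and 0 rose by limma (4 at an unadjusted p under 0.05), with a list median of 0.00. That call ended without any -bFGF array or +bFGF replicate 2 or 3, and with no filter or only the 2 groups.

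Ribosome biogenesis genes are among the best known targets of MYC. Of 49 measured genes, 0 fell and 1 rose on withdrawal by limma (1 and 5 at an unadjusted p under 0.05), with a median of 0.03. The riser was DDX18, a nucleolar RNA helicase, by 0.43 (SE 0.114, adjusted p = 0.0292), whose call ended without any RAW or -bFGF array. On replacement 0 fell and 2 rose (2 and 6 at an unadjusted p under 0.05), with a median of 0.05. They were DDX21, a nucleolar helicase, by 0.31 (SE 0.0484, adjusted p = 0.00127), and RCL1, which acts in processing of ribosomal RNA, by 0.22 (SE 0.0532, adjusted p = 0.0209). Both were also higher in +bFGF than in RAW, DDX21 by 0.30 (adjusted p = 0.00549) and RCL1 by 0.29 (adjusted p = 0.0119). The replacement call of RCL1 ended without -bFGF replicate 2 or 3 or +bFGF replicate 3, and its net call without RAW replicate 1 or +bFGF replicate 3. No intensity trend ended both, and the net call of DDX21. In the net change 0 fell and 2 rose, with a median of 0.08, where 1.85% of all genes fell, 1.62% rose and the median was 0.01. At an unadjusted p under 0.05, 2 fell and 9 rose, where 3430 of all 19220 tested probe sets passed in either direction.

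Of 45 measured MYC targets of growth and metabolism, 5 fell and 2 rose on withdrawal, with a median of 0.02. SLC2A1, a glucose transporter, averaged 1609 ± 12.2 in -bFGF and 2988 ± 71.6 in RAW (SD, n = 3 each), a log2 change of -0.89 (SE 0.0555, adjusted p = 2.82e-07 from limma). UMPS, an enzyme of pyrimidine synthesis, averaged 4442 ± 183 in -bFGF and 7362 ± 340 in RAW, a change of -0.73 (SE 0.0547, adjusted p = 1.66e-06). Of the glycolytic enzymes, lactate dehydrogenase, LDHA, changed by -0.38 (SE 0.0612, adjusted p = 0.00133), and the enolase gene ENO1 by -0.27 (SE 0.0744, adjusted p = 0.033). The triose phosphate isomerase gene TPI1 changed by -0.23 (SE 0.0648, adjusted p = 0.0407) and was named after its value was seen, as the fifth of those that fell. The risers were SLC19A1, a folate carrier, by 0.30 (SE 0.0712, adjusted p = 0.016), and SRM, of polyamine synthesis, by 0.28 (SE 0.0631, adjusted p = 0.0122).

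On replacement 0 of the 45 fell by limma (1 at an unadjusted p under 0.05) and 3 rose, with a median of 0.06. UMPS averaged 8375 ± 271 in +bFGF and 4442 ± 183 in -bFGF, a change of 0.92 (SE 0.0547, adjusted p = 1.45e-07). MTHFD2, of mitochondrial folate metabolism, rose by 0.50 (SE 0.0777, adjusted p = 0.00115) and SLC2A1 by 0.47 (SE 0.0555, adjusted p = 0.000116). The calls of SLC2A1, UMPS, LDHA and MTHFD2 in these 2 comparisons held with each array left out. The withdrawal call of ENO1 ended without any -bFGF array or RAW replicate 2 or 3, and that of TPI1 without any RAW array or -bFGF replicate 2 or 3. The call of SRM ended without RAW replicate 1 or -bFGF replicate 1, and that of SLC19A1 without RAW replicate 1 or -bFGF replicate 2. No intensity trend ended the calls of ENO1, TPI1 and SLC19A1, no filter and quantile normalization those of ENO1 and TPI1, and the block that of TPI1. In the net change 2 fell and 1 rose, where 1.85% and 1.62% of all genes did. SLC2A1 changed by -0.42 (SE 0.0555) and LDHA by -0.32 (SE 0.0612), and SLC19A1 rose by 0.30 (SE 0.0712). The net call of SLC2A1 held under every setting. That of LDHA ended without RAW replicate 1 or 3, and that of SLC19A1 without any array but RAW replicate 3. No intensity trend ended both, and no filter, only the 2 groups or the block ended that of SLC19A1.

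Of 25 measured cell cycle targets of MYC, 4 fell and 0 rose on withdrawal by limma (6 and 4 at an unadjusted p under 0.05), with a median of -0.06. CCND1 and CCND2, the D-type cyclins of G1 phase, averaged 2745 ± 82.2 and 8918 ± 189 in -bFGF, against 4144 ± 264 and 11973 ± 21.5 in RAW (SD, n = 3 each). Their log2 changes were -0.59 (SE 0.0638, adjusted p = 4.55e-05) and -0.43 (SE 0.0474, adjusted p = 6.20e-05). MCM2, of the replicative helicase, changed by -0.36 (SE 0.0653, adjusted p = 0.00289) and the cyclin A gene CCNA2 by -0.21 (SE 0.0525, adjusted p = 0.0236). On replacement 3 rose and 0 fell (6 and 4 at an unadjusted p under 0.05), with a median of -0.01. They were CCND1 by 0.94 (SE 0.0638, adjusted p = 5.55e-07), CCNA2 by 0.30 (SE 0.0525, adjusted p = 0.00282) and CCND2 by 0.30 (SE 0.0474, adjusted p = 0.00157). The withdrawal call of CCNA2 was lost when the second or the third array of RAW or of -bFGF was removed and with no intensity trend, and the other withdrawal and replacement calls of this list named here held with each array left out. In the net change 2 fell, with MCM2 among them at -0.27 (SE 0.0653), and 1 rose, CCND1, by 0.34 (SE 0.0638). Of all genes, 1.85% fell and 1.62% rose. The net call of MCM2 ended without any array but +bFGF replicate 3, and with no filter, centring, no intensity trend, only the 2 groups or the block. That of CCND1 ended without RAW replicate 1 or 2 or +bFGF replicate 2 or 3, and with no intensity trend. On withdrawal and replacement the called cyclins moved in the direction of MYCN and against that of MYC. Called genes of other lists, UMPS and SLC2A1 among them, did so too, and some genes did not. CCNE2 and RRM2 of this list changed by 0.18 (SE 0.0676) and 0.23 (SE 0.0708) on withdrawal, not called. Of the other lists, SRM, SLC19A1 and DDX18 rose on withdrawal, as MYC did. A part of MYC or MYCN in any of these changes was not tested. Of 7 tested fibroblast and mesenchyme markers, 4 fell and 0 rose on withdrawal by limma (4 and 0 at an unadjusted p under 0.05). Of all genes, 5.99% fell and 6.83% rose. The fallen markers were COL1A2 by -3.18, PRRX1 by -0.56, COL1A1 by -0.53 and FN1 by -0.40, while COL3A1 changed by 0.06 and was not called. The calls of COL1A1 and FN1 ended without any -bFGF array, among others. Their part in the falls of these lists was not tested.

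Of 12 measured genes that MYC is known to repress in mammals, 3 fell and 0 rose on withdrawal by limma (3 and 3 at an unadjusted p under 0.05), with a median of -0.01. DUSP1, a phosphatase of MAP kinases, averaged 415 ± 37.1 in -bFGF and 642 ± 70.1 in RAW (SD, n = 3 each), a log2 change of -0.63 (SE 0.110, adjusted p = 0.00241). The antiproliferative gene BTG1 changed by -0.32 (SE 0.0471, adjusted p = 0.000611) and the integrin gene ITGB1 by -0.23 (SE 0.0593, adjusted p = 0.0242). On replacement 2 fell and 1 rose, with a median of -0.07. BTG2, a relative of BTG1, averaged 287 ± 5.80 in +bFGF and 459.9 ± 19.1 in -bFGF, a change of -0.68 (SE 0.0972, adjusted p = 0.000611), and the integrin gene ITGA6 changed by -0.20 (SE 0.0469, adjusted p = 0.0205). DUSP1 rose by 0.73 (SE 0.110, adjusted p = 0.000968). The call of ITGB1 was lost when the first or the second array of RAW or of -bFGF was removed. That of ITGA6 was lost when the first or the second -bFGF array, or the second or the third +bFGF array, was removed, and with centring, no intensity trend or the block. No filter, quantile normalization or no intensity trend also ended that of ITGB1. At an unadjusted p under 0.05 by limma, 7 fell and 0 rose in the net change, where 3430 of all 19220 tested probe sets passed in either direction. At the adjusted p, 3 fell and 0 rose, where 1.85% and 1.62% of all genes did. They were BTG2 by -0.44 (SE 0.0972), BTG1 by -0.27 (SE 0.0471) and ITGA6 by -0.22 (SE 0.0469). The net call of BTG1 ended only with no intensity trend. That of BTG2 ended without any RAW or +bFGF array or -bFGF replicate 2, and with only the 2 groups or the block. That of ITGA6 ended without any RAW array or +bFGF replicate 2 or 3. It also ended with no filter, centring, no intensity trend, only the 2 groups or the block. Of 3 targets of MondoA and MLX, 1 rose and 0 fell on withdrawal and 0 changed on replacement by limma (at an unadjusted p under 0.05, 1 rose, and then 1 fell). ARRDC3, an arrestin-like protein, rose by 0.59 (SE 0.151, adjusted p = 0.025), and its call ended without any -bFGF array, with no filter and with no intensity trend.

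**Figure D3:**
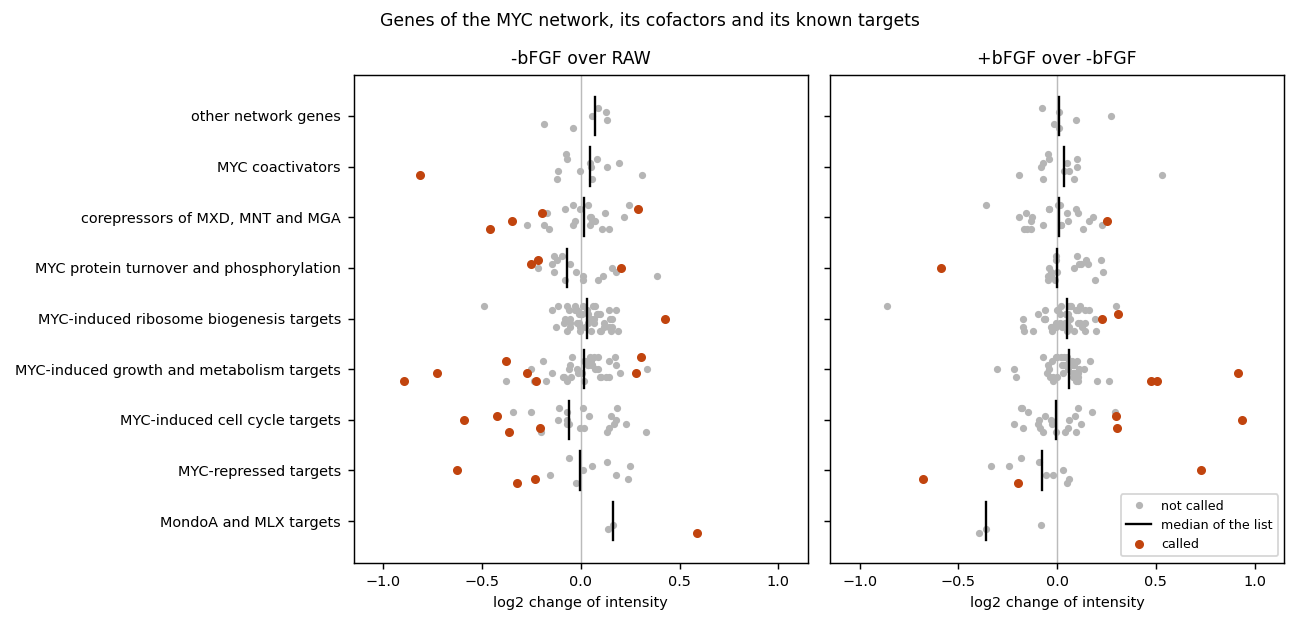
log2 change of intensity (x axis) of each measured gene in 9 lists for -bFGF over RAW and +bFGF over -bFGF, with called genes in colour, others in grey and a black line at the median of each list. The medians of the ribosome biogenesis targets are 0.03 and 0.05, and those of all genes 0.03 and -0.02.

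Genes whose pattern over the 9 arrays was most like that of MYC were sought among 15699 tested probe sets with a single symbol, by Pearson correlation of log2 intensity. All arrays of a group share their treatment, so a high value mostly says that the group means are ordered alike. The highest were CPEB1, a regulator of mRNA polyadenylation (0.991), the synaptic adhesion gene NLGN1 (0.987), the GTPase-activating protein gene ARHGAP24 (0.985), the scaffold gene IQGAP2 (0.984) and CYB5R1, of the cytochrome b5 reductases (0.982). NLGN1 averaged 1549.9 ± 86 in -bFGF and 660 ± 21.5 in RAW (SD, n = 3 each), a log2 change of 1.23 (SE 0.0784), and CPEB1 averaged 2559 ± 169.8 in -bFGF and 1943 ± 11.5 in RAW, a change of 0.40 (SE 0.0599). The most opposite were ATP2B1, a calcium pump of the plasma membrane (-0.987), the homeobox repressor gene HESX1 (-0.983) and PPP1R14C, an inhibitor of protein phosphatase 1 (-0.977). HESX1 averaged 131 ± 28.1 in -bFGF and 930.4 ± 107 in RAW, a change of -2.84 (SE 0.136).

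The same search for the brighter MYCN probe set, over 15698 probe sets, gave genes whose withdrawal changes lay between -0.43 and 0.43. The highest were NSUN2, an RNA methyltransferase (0.985), APC2, a relative of the APC tumour suppressor (0.970), SDSL, related to serine dehydratase (0.969), PPP4R2, a subunit of protein phosphatase 4 (0.958), and the glutathione transferase gene GSTA2 (0.955). NSUN2 averaged 1639 ± 16.9 in -bFGF and 1795.5 ± 28 in RAW (SD, n = 3 each), a log2 change of -0.13 (SE 0.0566), and APC2 averaged 165 ± 2 in -bFGF and 223 ± 17.9 in RAW, a change of -0.43 (SE 0.134). The most opposite were WRAP73, a centrosomal protein gene (-0.974), the corepressor gene RCOR3 (-0.968) and CROT, a carnitine acyltransferase of peroxisomes (-0.962), which changed by 0.43 (SE 0.0554). With Spearman correlation 3 of the 5 genes most like MYC and 4 of the 5 most like MYCN were among the first 50 genes. After quantile normalization they numbered 5 and 1.

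**Figure D4:**
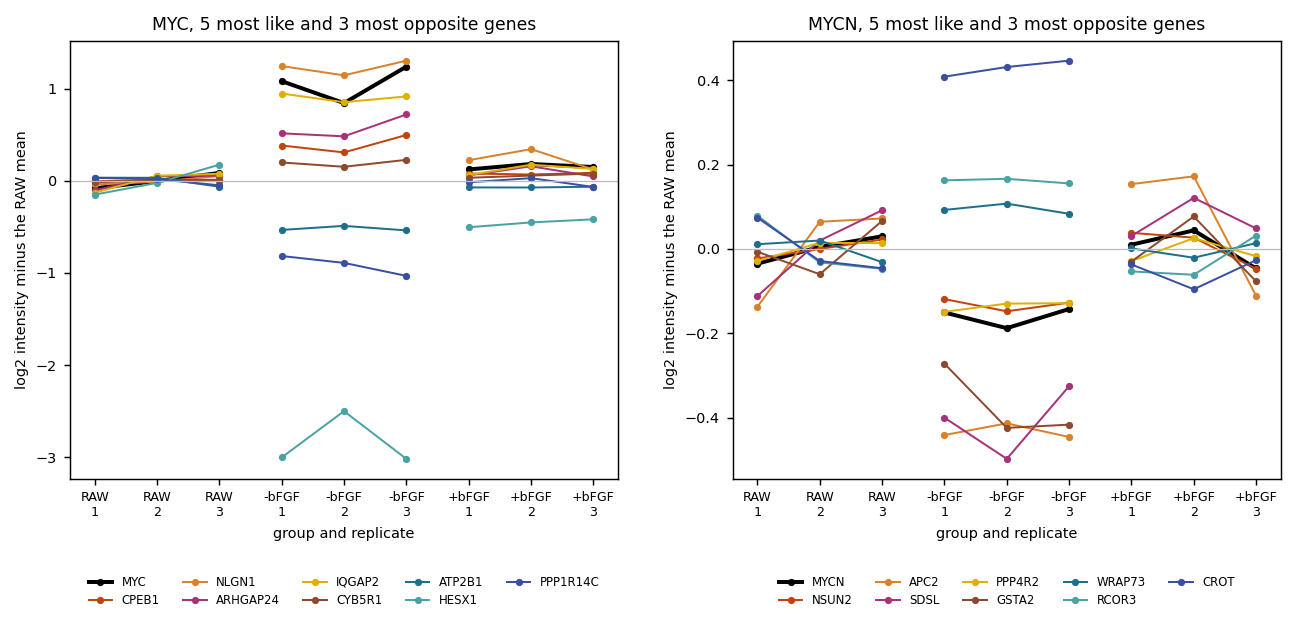
log2 intensity minus the RAW mean (y axis) on each of the 9 arrays (x axis, group and replicate) for MYC and MYCN (black) and, for each, the 5 genes with the highest and the 3 with the lowest Pearson correlation. In -bFGF MYC stands at 1.05, HESX1 at -2.84 and MYCN at -0.16, and in +bFGF HESX1 stands at -0.46 and NLGN1 at 0.23.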

How the data were processed

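The authors deposited linear intensities, computed from Affymetrix Chicken Genome arrays with MAS5 (its version is not given in the sources used here), with a single value for each probe set on each array. The study's comparisons were made in dChip from probe-level data, not used here. Of 38535 probe sets, 96 array controls were left out. Gene names came from the supplied probe annotation (27178 probe sets with 1 symbol, 177 with several, 11180 with none, none named from several), and chromosomes from RefSeq by gene ID. Probe sets have no coordinates here, and no sequences were used.

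Groups came from the sample labels. Deposited intensities were converted to log2 with no offset and no further normalization. In limma 3.58.1 under R 4.3.3, a model with the 3 group means was fitted to the 9 arrays, with variances moderated along an intensity trend, two-sided tests and Benjamini-Hochberg adjustment over 19220 probe sets in each comparison, and the fit was checked on simulated data. The number of arrays limits the precision. No 2 arrays held identical values. The members, and the lists, which come from textbook knowledge, were chosen with earlier results of these data known. Named are all members, up to 4 called genes of a list in each direction with the largest changes on withdrawal and on replacement, the 5 genes most like and the 3 least like MYC and MYCN, and markers where cell types are checked. Alternatives were other filters, scalings, an offset, no trend, fewer groups, a replicate block and each array left out.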

Additional observations from a re-analysis of the deposited data

How the results depend on the processing

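Counts of called members were small and moved easily. No called member changed sign under any alternative run. On withdrawal, the 2 fallen members became 0 with no filter and 1 with the 75th percentile filter, quantile normalization, no intensity trend, the replicate block or the methods' criteria, and 0 to 2 with an array left out. The 1 risen member, MYC, became 0 with the 75th percentile filter, which leaves it untested, and remained with each array left out (1 to 1). On replacement, the 2 fallen became 1 with the 75th percentile filter, centring on the 75th percentile, no trend, the block or the methods' criteria (0 to 2 with an array left out), and the 1 risen became 2 with that filter or centring (1 to 1 with an array left out). In the net change, the 2 fallen became 1 with no filter, the 75th percentile filter, centring, no trend, only the 2 groups, the block or the methods' criteria (0 to 2), and the 1 risen became 0 with no filter, no trend, only the 2 groups, the block or the methods' criteria (0 to 1). The cause was not tested. Over all probe sets, with an array left out, 649 to 1142 were called fallen and 561 to 1185 risen on withdrawal, 332 to 654 fallen and 433 to 634 risen on replacement, and 112 to 366 fallen and 88 to 244 risen net. On replacement 657 fell, or 426 with the 75th percentile filter. In the net change 335 fell and 220 rose: 221 and 144 with no filter, 143 and 89 with no trend and 200 and 142 with replicate number as a block, while only the 2 groups gave 217 fallen. Same-numbered arrays of different groups had deviation correlations between -0.213 and 0.0605, and arrays with different numbers between -0.146 and 0.167. Deviations cancel within each group, so these values cannot show whether same-numbered arrays share a culture. Counts for the lists were compared on withdrawal and replacement only. Under all alternatives, 507 equalled the main count or were within 1.5 times of it, counts that stayed at 0 among them, and 105 were not.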
